A study of Homo sapiens with 8 samples.

Results

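COL4A1, COL4A2, COL5A1, COL6A1, COL6A2, COL7A1, COL12A1, COL16A1, COL17A1 and COL18A1 are 10 collagen genes expressed by BEAS-2B cells. They were followed through an 8-oxoG RIP-seq experiment, in which RNA carrying the oxidized base 8-oxo-7,8-dihydroguanine was pulled down with an antibody and sequenced beside the RNA it came from. The genes were chosen by symbol as collagens with glycine-rich, and so mostly guanine-rich, coding sequences. They are 10 of 58735 genes in the deposited tables and 10 of the 18242 genes with enough reads to test. All 10 passed the filter of at least 10 counts in at least 2 of the 8 libraries.

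BEAS-2B is an immortalized line of normal human bronchial epithelium, grown here on inserts coated with bovine type I collagen with the upper cell surface opened to the air. Every culture spent 2 h in an exposure chamber under a mix of CO2 and air and then 6 h in fresh medium. The air held 1 ppm formaldehyde for the formaldehyde groups (FA) and was humidified clean air for the controls (CA). From each treatment a ribosomal RNA-depleted pool was sequenced as input (CA_IN, FA_IN) and after the 8-oxoG pull-down (CA_IP, FA_IP), with 2 libraries a group, numbered 1 and 3. The study's methods and the sample characteristics name the same antibody clone, and the extraction protocol in the labels names another. A library held 16.9 to 45.1 M expected counts. The p-values below rest on the spread between 2 libraries a group, shared over the 4 groups and in part borrowed across genes. That spread may in part be technical.

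Collagens are built from 3 polypeptide chains that wind around each other, and only glycine is small enough to pack inside the helix, so that it returns at regular steps along the chain. All glycine codons begin with GG, and the helix is therefore written in RNA as a guanine pair that returns at the same steps. Guanine is also the base that oxidizes most readily, and 8-oxoG is its oxidized form. In bronchial epithelium, collagens of the basement membrane lie under the cells and others fasten the cells to it.

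The coding stretches that open the longest uninterrupted helix repeat show this pattern for 4 of the genes. They come from GENCODE 44 (GRCh38), 90 coding bases each from 5′ to 3′, with the glycine codon of every triplet in capitals. COL4A1 is shown for a network collagen of the basement membrane (exons 2 and 3, minus strand, chr13:110213944-110242692). COL6A2 is shown because it had the highest pull-down among the genes (exons 5 and 6, plus strand, chr21:46114038-46115925). COL7A1 has the highest coding guanine content (exons 102 and 103, minus strand, chr3:48569393-48569627). COL12A1 has the lowest (exons 56 to 58, minus strand, chr6:75101627-75102605). The coordinates span the introns between the exons, which the sequences leave out.
COL4A1: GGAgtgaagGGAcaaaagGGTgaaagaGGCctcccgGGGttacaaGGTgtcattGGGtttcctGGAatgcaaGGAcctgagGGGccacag
COL6A2: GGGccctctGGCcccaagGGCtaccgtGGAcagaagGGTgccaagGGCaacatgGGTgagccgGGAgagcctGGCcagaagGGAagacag
COL7A1: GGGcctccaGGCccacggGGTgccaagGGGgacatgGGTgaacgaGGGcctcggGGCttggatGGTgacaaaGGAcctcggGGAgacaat
COL12A1: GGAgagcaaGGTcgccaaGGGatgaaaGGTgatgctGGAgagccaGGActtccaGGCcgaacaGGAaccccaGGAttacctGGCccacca

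Each stretch holds 10 glycine codons among 30, and guanine makes up 38.9% of the COL4A1 stretch, 41.1% of COL6A2, 43.3% of COL7A1 and 33.3% of COL12A1. The genes differ in how much of the protein is helix. In COL4A1, 79.4% of codons lie in repeats of at least 5 glycine triplets, in COL5A1 58.8%, and in COL12A1, whose product is mostly non-helical, 8.19%. The longest uninterrupted repeat ran for 338 triplets in COL5A1, a fibril-forming chain, and for 30 in COL18A1, whose helix is broken many times.

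Over the whole coding sequence, glycine codons made up from 9.17% (COL12A1) to 28.6% (COL4A1) of codons, against a median of 6.36% over 13835 tested protein-coding genes. Guanine made up 33.0% to 36.1% of the coding bases in 8 of the genes, which places them in the top decile of coding genes, from the 92.6th to the 98.4th percentile. COL17A1, at 29.1%, stood at the 69.7th percentile. COL12A1, at 24.5%, stood at the 32.4th percentile, so it is glycine-rich for a coding gene but not guanine-rich.

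In input RNA the genes were modestly expressed. The levels compared between genes are TPM, which counts transcripts at a fixed total for each library after division by length. COL4A2, a basement-membrane chain, was the highest in clean-air input at 8.04 ± 0.71 TPM (SD, n = 2), followed by COL17A1, the transmembrane collagen of hemidesmosomes, at 6.54 ± 0.03. COL16A1 (4.93 ± 0.02), COL6A1 (4.78 ± 0.22), COL7A1 (4.58 ± 0.30) and COL4A1 (4.22 ± 0.66) followed, and the spread of each of these 4 overlapped that of a neighbour. Below them came COL6A2 at 3.42 ± 0.29, COL12A1 at 1.57 ± 0.03, COL18A1 at 1.18 ± 0.04 and COL5A1 at 0.42 ± 0.07. Formaldehyde input had the same gene at the top and the same 3 at the bottom, with COL4A2 at 7.92 ± 0.63 and COL5A1 at 0.46 ± 0.01 TPM (SD, n = 2).

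The chains of one trimer kept to a narrow ratio in TPM. COL4A1 and COL4A2, which form the type IV heterotrimer, stood at 0.48 to 0.60 COL4A1 for each COL4A2 over the 8 libraries. COL6A1 stood at 1.32 to 1.49 for each COL6A2. COL6A3, the third chain of type VI collagen, held 9.99 to 38 counts a library and 0.02 to 0.05 TPM in input; it was singled out after its values were seen. COL4A1 and COL4A2 lie head to head on chromosome 13 (110148963 to 110307157, minus strand, and 110305812 to 110513209, plus strand, in GRCh38), and their annotated spans overlap there. The counting command printed by the study sets no strand option, so reads in the overlap could have gone to either gene. COL6A1 and COL6A2 are neighbours on chromosome 21 (45981770 to 46005050 and 46098112 to 46132848, both plus strand).

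The labelled cell type was checked against markers. All 9 epithelial markers were above 1 TPM in every library, with KRT5 at 108 to 179 TPM and KRT17 at 288 to 426 TPM in input. Of the 11 mesenchymal or fibroblast markers 3 were above 1 TPM in every library, VIM (173 to 229 TPM in input), THY1 (12.9 to 17.7) and CDH2 (3.31 to 4.05). COL1A1 stood at 0.92 to 1.30 TPM and PDGFRB at 0.16 to 0.70 TPM in input, and the other 6, COL1A2, COL3A1, DCN, LUM, PDGFRA and POSTN, at or below 0.09 TPM. Summed, the 11 ran from 195 to 247 TPM in clean-air input and 200 to 230 TPM in formaldehyde input. The endothelial markers summed to at most 0.19 TPM in input, and of the 4 immune markers CD68 alone was above 1 TPM in every library, at 1.46 to 2.13 TPM in input.

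TPM values cannot be carried across the pull-down. From input to pull-down the median gene gained 0.94 log2 units of TPM in clean air and 0.88 after formaldehyde, and the collagens 1.13 and 0.91. The comparisons below therefore use CPM, read counts at a fixed total for each library scaled by the trimmed mean of M-values (TMM). This scaling places the typical gene near 0, and the median of all genes moved by 0.02 and 0.0035. Each change below is thus relative to the typical gene, and a gain shared by most genes would not show. Together the 10 genes took 0.0482% to 0.0530% of the counts in input libraries and 0.0575% to 0.0619% in pull-down libraries.

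**Figure D1:**
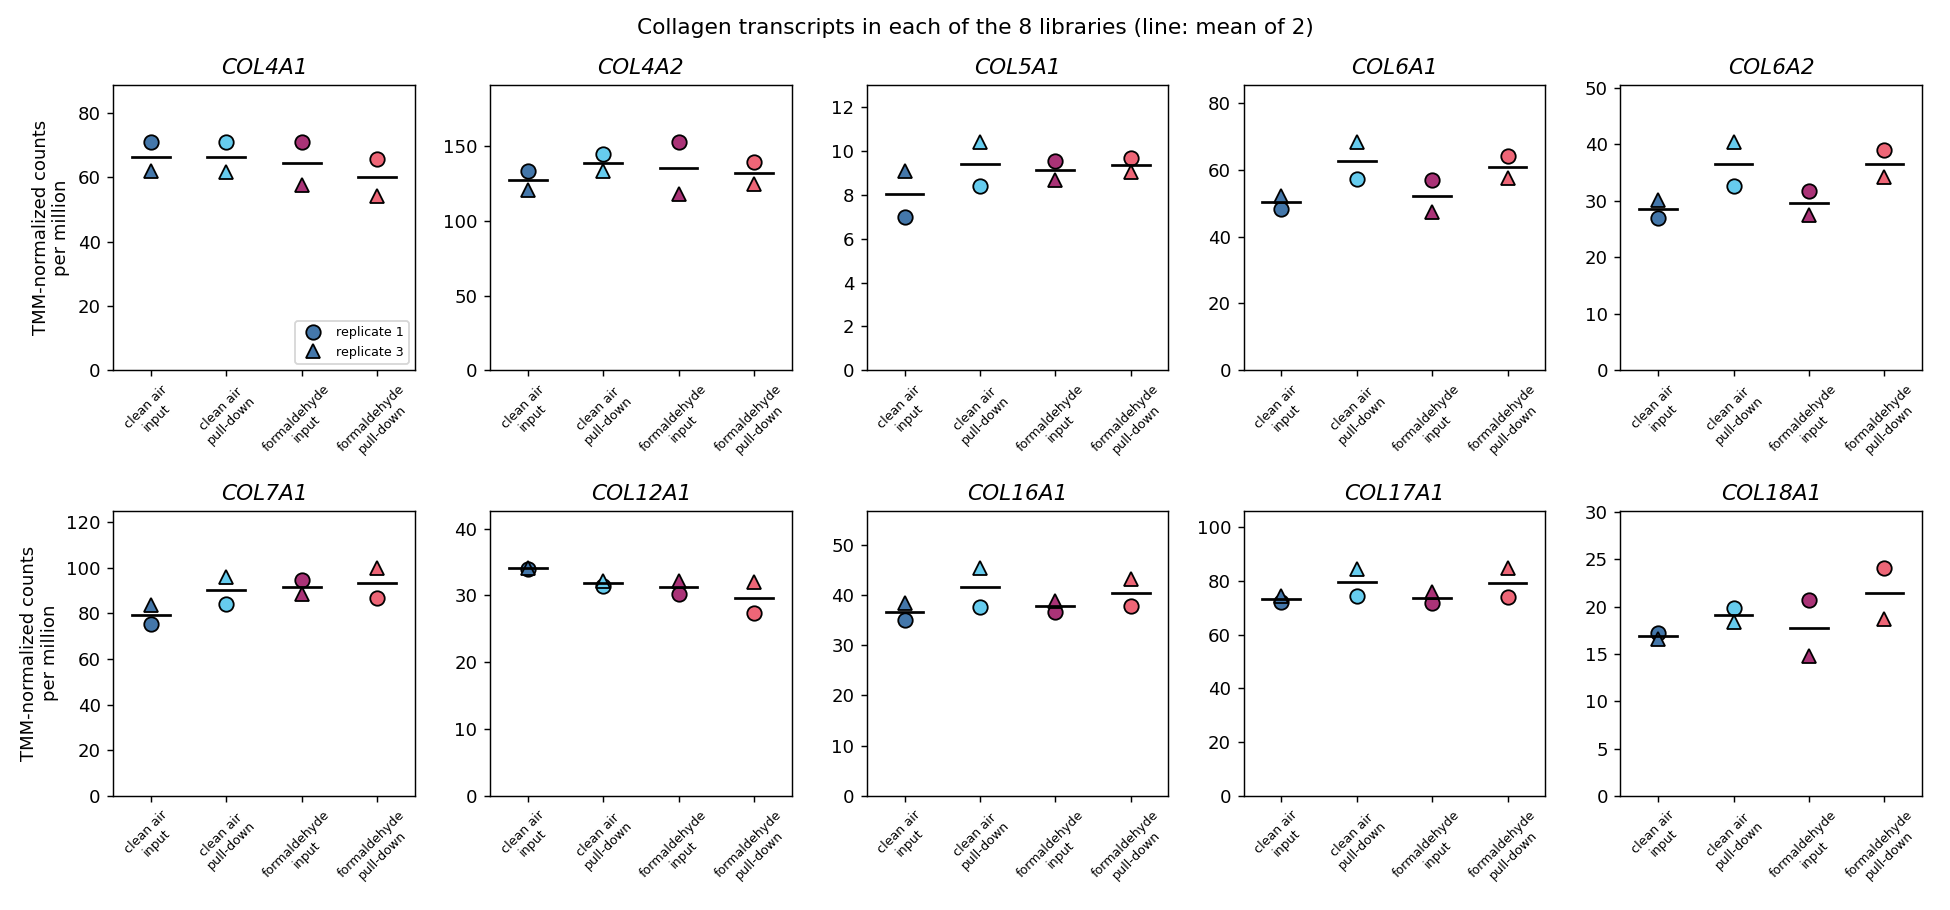
TMM-normalized CPM (vertical axes, linear from 0, scaled for each gene) of the 10 collagen genes in the 4 groups; each point is 1 library, circles replicate 1 and triangles replicate 3, and lines are means of 2. COL6A1 and COL6A2 stand higher in both pull-down groups than in the input of the same treatment, and COL4A1 runs lower in replicate 3 than in replicate 1 in all 4 groups.

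The first question was whether collagen RNA was enriched in the 8-oxoG pull-down of clean-air cells. COL6A1 and COL6A2, the type VI chains of the microfibrils beside the basement membrane, had the highest pull-down of the 10. COL6A2 held 26.9 and 30.1 CPM in the CA_IN libraries and 32.5 and 40.4 in CA_IP. COL6A1 held 48.2 and 52.3 in CA_IN and 57.2 and 68.4 in CA_IP. For both genes the groups did not overlap. The change was 1.28-fold for COL6A2 (95% confidence interval 1.02 to 1.61, log2 0.36 ± 0.14 SE) and 1.25-fold for COL6A1 (1.02 to 1.53, log2 0.32 ± 0.13 SE), at unadjusted p of 0.037 each and adjusted p of 0.35 each over all genes by edgeR's quasi-likelihood test. Neither passed the threshold of 0.05. Without CA_IP library 3 the log2 change was 0.19 in each, and without CA_IP library 1 it was 0.50 in COL6A2 and 0.44 in COL6A1.

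By that test 0 of the 10 genes passed in clean air, against a background of 1.91% of all genes (27 higher and 322 lower in pull-down). DESeq2 on the same 8 libraries called 0 of the 10 as well. At an unadjusted p under 0.05 stood the 2 type VI genes among the 10, against 12.6% of all genes. Both pull-down libraries lay above both inputs for 5 of the 10, COL6A1, COL6A2, COL7A1, COL17A1 and COL18A1, where the background was 22.9% of genes. The median log2 change of the 10 was 0.18, against 0.02 for all genes tested and 0.04 for protein-coding genes.

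Within a treatment, the input and pull-down libraries of one number came from one RNA pool, and a fit that treats the pool as a block has a smaller error. It leaves each gene 2 residual degrees of freedom, so its p-values rest largely on a spread borrowed across genes. In that fit COL6A2 (log2 0.35 ± 0.08 SE, adjusted p = 0.0024) and COL6A1 (0.32 ± 0.07 SE, adjusted p = 0.0034) rose in clean-air pull-down, by edgeR's quasi-likelihood test. These are 2 of 10 genes, against a background of 11.6% of genes higher in that fit. Within pools, the COL6A2 ratio was 0.27 log2 units in pool 1 and 0.43 in pool 3, and the COL6A1 ratio 0.25 and 0.39.

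The other genes lay closer to 1-fold. COL5A1, the fibril-nucleating chain of type V collagen, is the least abundant, with 6.98 and 9.10 CPM in CA_IN and 8.41 and 10.4 in CA_IP, and its groups overlapped. Its log2 change was 0.23 ± 0.19 SE. COL7A1, the anchoring-fibril collagen that ties the basement membrane to the stroma, held 75.3 and 83.5 CPM in CA_IN and 84.2 and 95.8 in CA_IP, with no overlap and a log2 change of 0.18 ± 0.11 SE. COL16A1, a collagen that associates with fibrils, changed by 0.18 ± 0.13 SE and COL18A1, the basement-membrane proteoglycan that yields endostatin, by 0.18 ± 0.19 SE. COL17A1 moved by 0.12 ± 0.10 SE and COL4A2 by 0.13 ± 0.13 SE. None of the 6 passed, with adjusted p from 0.58 to 0.78 by edgeR.

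COL4A1, which had the highest share of glycine codons, lay at 1-fold. It held 71.1 and 62.0 CPM in CA_IN and 71.1 and 61.6 in CA_IP, a 1.00-fold change with a 95% interval of 0.80 to 1.25. COL12A1, the gene with the least guanine, was the lowest in pull-down, with 34.0 and 34.2 CPM in CA_IN and 31.4 and 32.2 in CA_IP. Its groups did not overlap, and its log2 change of -0.10 ± 0.11 SE did not pass (adjusted p = 0.81, edgeR). Such non-overlap was common in the other direction, at 22.9% of genes, and the share in this direction is not given. Scaling by library size in place of TMM moved the median of all genes by 0.16 and put COL4A1 at 0.14 and COL12A1 at 0.05, on the other side of 0.

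**Figure D2:**
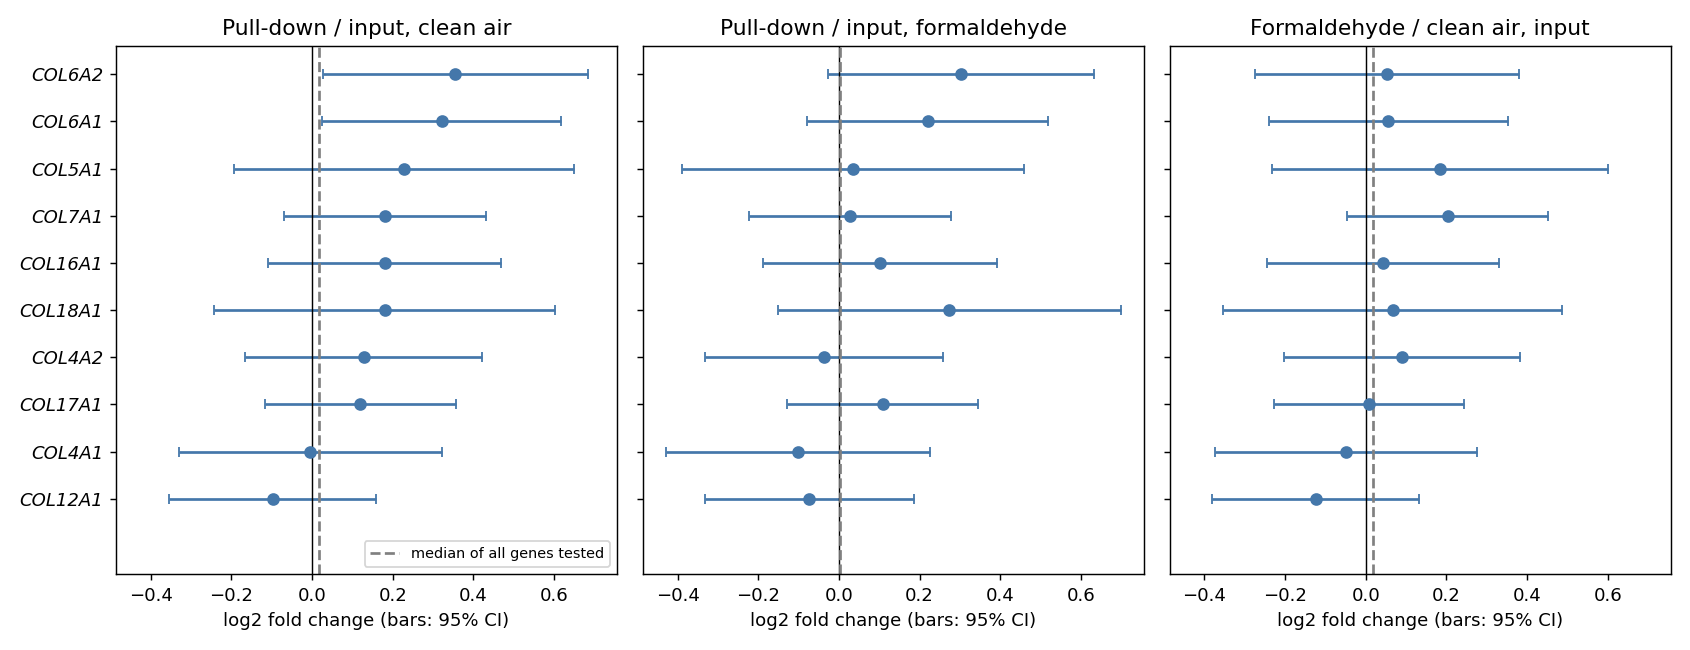
Log2 fold change (horizontal axes) of each collagen gene for pull-down over input in clean air, pull-down over input after formaldehyde, and formaldehyde over clean air in input; points are edgeR estimates from 2 libraries a group, bars their 95% confidence intervals, and the dashed line the median of all 18242 genes. COL6A2 and COL6A1 lie farthest to the right in clean air, and every interval in the input panel includes 0.

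The same comparison was made in formaldehyde-exposed cells. COL6A2 was again the highest, with 31.7 and 27.4 CPM in FA_IN and 38.9 and 34.1 in FA_IP, a 1.23-fold difference (95% interval 0.98 to 1.55, log2 0.30 ± 0.15 SE). COL6A1 held 57.1 and 47.5 in FA_IN and 64.1 and 57.7 in FA_IP, a log2 change of 0.22 ± 0.13 SE. These were the 2 of 10 genes whose groups did not overlap, both with pull-down higher, where the background was 18.9%. COL18A1 held 20.7 and 14.7 CPM in FA_IN and 24.1 and 18.7 in FA_IP, a log2 change of 0.27 ± 0.19 SE with overlapping groups. Leaving out 1 library moved COL18A1 between 0.064 (without FA_IN library 3) and 0.55 (without FA_IN library 1), and COL6A1 between 0.11 and 0.37 without the same libraries.

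None of the 10 passed in the edgeR test after formaldehyde (background 1.5% of genes, smallest adjusted p 0.62), 0 of 10 had an unadjusted p under 0.05 (9.10% of all genes did), and DESeq2 on all 8 libraries called 0 of 10. The median log2 change was 0.068, against 0.0035 for all genes, and ran from 0.031 without FA_IN library 3 to 0.10 without FA_IP library 1. In the pool-blocked fit COL6A2 (0.30 ± 0.08 SE, adjusted p = 0.014) and COL18A1 (0.28 ± 0.09 SE, adjusted p = 0.046) rose, by edgeR, and COL6A1 missed the threshold (0.22 ± 0.07 SE, adjusted p = 0.057). The background of genes higher in that fit was 5.45%. In COL18A1 the ratio was 0.22 log2 units in pool 1 and 0.35 in pool 3.

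The basement-membrane chains of type IV collagen both lay slightly below 0 after formaldehyde. COL4A1 held 71.1 and 57.7 CPM in FA_IN and 65.7 and 54.4 in FA_IP (log2 -0.10 ± 0.14 SE). COL4A2 held 153 and 118 CPM in FA_IN and 139 and 125 in FA_IP (log2 -0.04 ± 0.13 SE), and its ratio was -0.13 in pool 1 and 0.08 in pool 3. In both genes the groups overlapped and the libraries numbered 1 were above those numbered 3. COL12A1 stood at -0.07 ± 0.11 SE, and COL7A1, COL5A1, COL16A1 and COL17A1 between 0.03 and 0.11 on the log2 scale.

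The difference between the treatments was tested by itself, as pull-down over input after formaldehyde minus that in clean air. It ran from -0.19 in COL5A1 (SE 0.26, 95% interval -0.79 to 0.40) to 0.09 in COL18A1 (SE 0.26, interval -0.51 to 0.69), with a median of -0.09 against -0.02 for all genes. None of the 10 passed in edgeR, none had an unadjusted p under 0.05 and DESeq2 on 8 libraries called 0 of 10. The background was 0% of genes in edgeR, with 195 genes at an unadjusted p under 0.05, while DESeq2 called 3. With 2 libraries a group the error of this difference was 0.15 to 0.26 log2 units a gene. The 95% intervals of the 10 genes together reached from -0.79 to 0.69, and each included 0. How large a difference this design could detect was not tested.

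Coding guanine and pull-down went together across genes. Over 13835 protein-coding genes Spearman's rho between coding guanine content and the log2 pull-down change was 0.57 in clean air and 0.45 after formaldehyde, and 0.15 for the formaldehyde change in input. These are correlations across genes measured in the same libraries, and genes are not independent replicates. Guanine content and GC content went together (rho 0.88), and GC content gave 0.56 and 0.42, so guanine and GC cannot be told apart here. The share of glycine codons gave less, 0.26 and 0.21. From the lowest to the highest decile of coding guanine, the median log2 change went from -0.16 to 0.27 in clean air and from -0.12 to 0.18 after formaldehyde. Transcript length changed along the same deciles, from a median of 4133 bases in the lowest to 2353.5 in the highest. Its part in the pull-down was not tested.

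The collagens were set against the median of genes of like guanine content, which by definition splits those genes evenly. The 8 genes in the top decile had a median log2 change of 0.18 in clean air and 0.07 after formaldehyde, where all 1384 genes of that decile had 0.27 and 0.18. In clean air 8 of the 10 were below the median of their own decile, COL4A1 by the widest margin (-0.28). Only for COL4A1 and COL4A2 (-0.15) was the margin there wider than the SE of the gene's own change. COL6A2 and COL6A1 were above it by 0.08 and 0.05. After formaldehyde 6 of 10 were below, which is near an even split. COL4A1 was again the farthest below (-0.28), and COL6A2 (0.13) and COL18A1 (0.10) were the farthest above. The 128 other tested coding genes with at least 15% glycine codons had medians of 0.06 and 0.02.

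**Figure D3:**
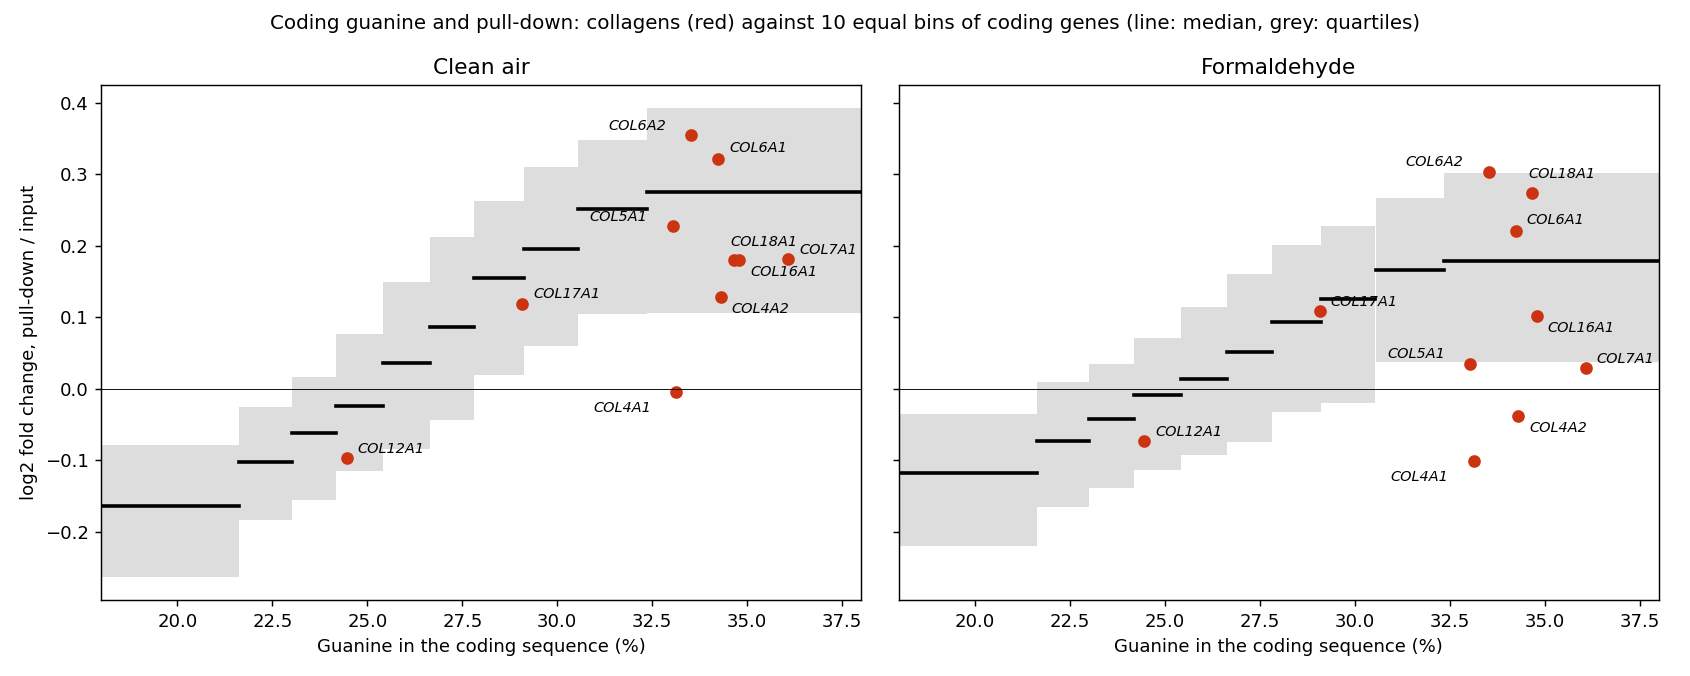
Log2 pull-down change (vertical axis) against guanine in the coding sequence in percent (horizontal axis, drawn from 18% to 38%) in clean air and after formaldehyde; black lines are medians and grey boxes quartiles of 10 equal bins of protein-coding genes, and red points are the collagens. The medians climb from -0.16 to 0.27 in clean air, and 8 of the 10 collagens lie below the line of their own bin there, COL4A1 farthest.

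Within the 10 genes the order of pull-down followed coding GC content (rho 0.79 in clean air and 0.73 after formaldehyde) more than guanine (0.39 and 0.21) or glycine codons (-0.18 and -0.45). The glycine codons themselves differed. G or C filled the last position in 65.4% of them in COL6A1, 64.8% in COL18A1 and 60.6% in COL6A2, against 43.9% in COL4A1 and 36.3% in COL12A1. The rank of this share went with the rank of pull-down at rho 0.76 and 0.90. Length differed too: the reference transcripts of COL6A2 (3445 bases) and COL6A1 (4203) are the shortest of the 10, and that of COL12A1 (11725) the longest. These are 10 points that share libraries, and the values are a description.

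Input RNA was compared to ask whether formaldehyde changed the amount of collagen transcript. In bulk RNA, fewer cells with a transcript and less transcript in each cell cannot be told apart. COL7A1 showed the largest difference, with 75.3 and 83.5 CPM in CA_IN and 94.5 and 88.4 in FA_IN. Its groups did not overlap, the only one of the 10 with both formaldehyde libraries above both controls (background 18.1% of genes). The fold was 1.15 (95% interval 0.97 to 1.37, log2 0.20 ± 0.11 SE, edgeR adjusted p = 0.95), which did not pass. COL12A1 lay the other way, with 34.0 and 34.2 CPM in CA_IN and 30.3 and 32.2 in FA_IN (log2 -0.12 ± 0.11 SE). COL5A1 stood at 0.18 ± 0.18 SE and the remaining 7 between -0.05 and 0.09.

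In input edgeR called 0 of the 10 (background 0.00548%, 1 gene of 18242) and 0 of 10 had an unadjusted p under 0.05, against 3.35% of all genes. DESeq2 on all 8 libraries called 0 of the 10. The median log2 change of the 10 was 0.05, against 0.02 for all genes. The 95% intervals of the 10 gene sums together reached from -0.38 to 0.60. The study set its log2 limit of 2 on single transcripts, so these intervals are not at the level of that limit. The clean-air input libraries serve both in this comparison and in the clean-air pull-down.

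The libraries numbered 1 and 3 were also compared, a contrast added after the data were seen. In a fit with the replicate number as a term, which sets 4 libraries against 4, 1632 genes were higher and 2360 lower in the libraries numbered 3. Within a treatment, input and pull-down of one number came from one RNA pool, and this fit has no term for the pool. Its p-values therefore treat libraries of one pool as independent, and the 4 groups are not 4 independent repeats. Across the 4 groups, edgeR called COL4A1 (log2 -0.24 ± 0.05 SE, adjusted p = 0.0050), COL4A2 (-0.20 ± 0.05 SE, adjusted p = 0.017) and COL18A1 (-0.26 ± 0.08 SE, adjusted p = 0.036) lower in the libraries numbered 3. In each of the 4 groups the library numbered 1 was above the one numbered 3. COL16A1 (0.17 ± 0.06 SE), COL17A1 (0.13 ± 0.05 SE) and COL12A1 (0.09 ± 0.06 SE) lay higher in the libraries numbered 3 in all 4 groups. None of them passed (adjusted p = 0.058, 0.11 and 0.36, edgeR). The share of all genes with such an order is not given. The background was 12.9% of genes lower in the libraries numbered 3.

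**Figure D4:**
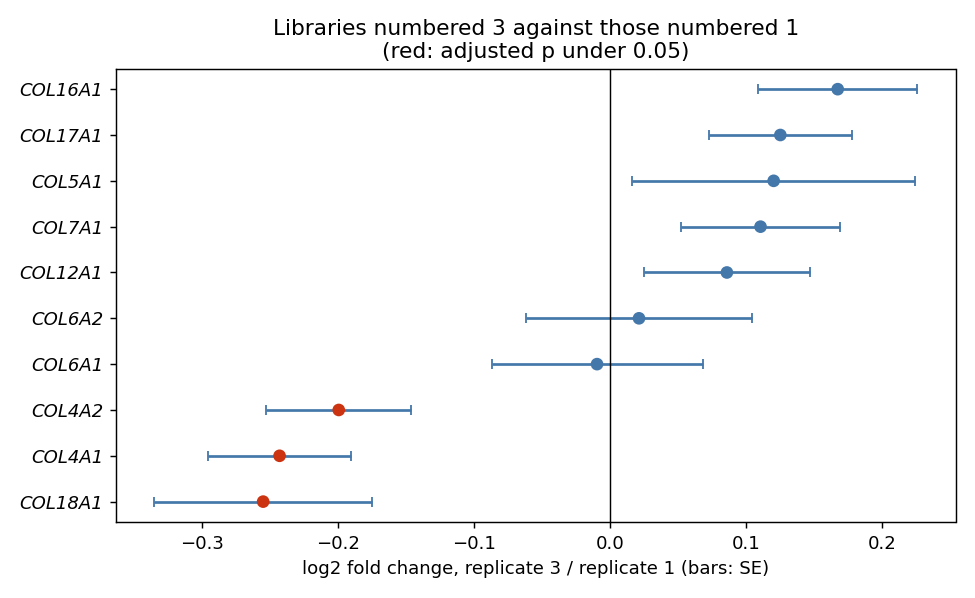
Log2 fold change of the libraries numbered 3 over those numbered 1 (horizontal axis) for each collagen gene, over the 4 groups; points are edgeR estimates and bars their standard errors, with adjusted p under 0.05 in red. COL18A1, COL4A1 and COL4A2 lie at -0.26, -0.24 and -0.20, and COL6A1 and COL6A2 near 0.

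The input comparison differed between the numbers in some genes. COL18A1 was 0.27 log2 units higher with formaldehyde between the inputs numbered 1 and 0.16 lower (-0.16) between those numbered 3. COL6A1 was at 0.24 and -0.14, and COL6A2 at 0.24 and -0.13. COL7A1 kept its sign, at 0.33 and 0.08, as did COL12A1 at -0.16 and -0.09.

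Reads were counted by isoform and summed for the gene. In all 10 genes 1 isoform held most of the counts. Outside COL6A2 its share ran from 75.0% for ENST00000322507 of COL12A1 to 98.2% for ENST00000371817 of COL5A1. COL6A2 was split between ENST00000300527 (67.2%) and ENST00000397763 (28.6%), whose clean-air pull-down changes were 0.37 ± 0.19 SE and 0.21 ± 0.16 SE on the log2 scale. COL17A1 was the least stable. Its leading isoform ENST00000353479 held from 47.0% to 96.6% of the gene's counts in single libraries, and ENST00000648076 from 0.93% to 49.5%. The extremes were both in pull-down libraries numbered 1, with ENST00000648076 at 49.5% in clean air and 0.93% after formaldehyde, while the gene sum in these was 74.6 and 73.9 CPM. ENST00000353479, which GENCODE 44 does not hold, is 5689 bases long and ENST00000648076 is 5610. How reads shared by these isoforms were divided was not tested. In COL12A1 the minor isoform ENST00000483888 (2.72% of counts) held 0 and 0 counts in CA_IN and 66.1 and 40.3 in FA_IN (log2 8.78 ± 2.26 SE). Its pull-down counts were 38.4 and 27.7 in clean air and 0 and 24.5 after formaldehyde. ENST00000648076 and ENST00000483888 were singled out after their values were seen. No isoform of the 10 genes named here passed at the isoform level (adjusted p of 0.49 or more, edgeR).

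Other genes that make, fold and hold collagen were taken from lists. Of 32 other collagen genes 21 were tested and 0 passed in any comparison, and 0 had an unadjusted p under 0.05. Their median pull-down change was 0.02 in clean air and -0.07 after formaldehyde. COL8A1, a network-forming short-chain collagen, had the highest counts of the list, at 221 and 212 CPM in CA_IN and 233 and 205 in CA_IP, with a log2 change of 0.02 ± 0.12 SE. COL4A5, a chain of the other type IV trimers, changed by 0.07 ± 0.11 SE.

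Enzymes that fold and modify collagen chains came next. Of 21 listed, 20 were tested and 0 passed (smallest adjusted p 0.14 and 0.36, edgeR), and 8 in clean air and 7 after formaldehyde had an unadjusted p under 0.05, against 12.6% and 9.10% of all genes. Their medians were 0.26 and 0.23. P4HB, a subunit of prolyl 4-hydroxylase, held 814 and 705 CPM in CA_IN and 972 and 918 in CA_IP (log2 0.32 ± 0.11 SE, adjusted p = 0.26, edgeR). PPIB, the prolyl isomerase of the endoplasmic reticulum, changed by 0.35 ± 0.12 SE in clean air (adjusted p = 0.23) and 0.29 ± 0.12 SE after formaldehyde (adjusted p = 0.50).

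Among 11 tested genes of 13 for maturation and crosslinking 0 passed, with medians of 0.27 and 0.12. At an unadjusted p under 0.05 stood 4 and 0 of them, against 12.6% and 9.10% of all genes. BMP1, the procollagen C-proteinase, changed by 0.29 ± 0.11 SE in clean air, and LOXL2, a crosslinking lysyl oxidase, by 0.27 ± 0.16 SE. Of the 16 genes for collagen breakdown and its inhibitors 13 were tested. An unadjusted p under 0.05 was reached by 3 in clean air and 1 after formaldehyde. TIMP1, an inhibitor of metalloproteinases, was the 1 that passed in each treatment, where the background was 1.91% and 1.5% of genes. It fell in pull-down from 192 and 194 CPM in CA_IN to 115 and 138 in CA_IP (log2 -0.61 ± 0.11 SE, adjusted p = 0.028) and from 198 and 207 in FA_IN to 121 and 141 in FA_IP (-0.62 ± 0.11 SE, adjusted p = 0.029), by edgeR.

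None of 8 tested collagen receptors and none of 21 basement-membrane and hemidesmosome partners passed in pull-down in either treatment, with medians of -0.01 and 0.09 in clean air and -0.07 and 0.01 after formaldehyde. At an unadjusted p under 0.05 stood 0 of the receptors and 1 of the partners in each treatment. The background was 12.6% of all genes in clean air and 9.10% after formaldehyde. ITGB1, the shared beta chain of the collagen-binding integrins, changed by -0.03 ± 0.11 SE in clean air, and DDR1, a collagen-activated kinase, by 0.23 ± 0.12 SE. FN1, the matrix glycoprotein fibronectin, changed by 0.05 ± 0.08 SE and ITGA3, a laminin-binding integrin chain, by 0.29 ± 0.13 SE. In input, and in the difference between treatments, edgeR called 0 genes of the 6 lists. In input 1 receptor had an unadjusted p under 0.05, against 3.35% of all genes.

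The pattern of the 10 genes over the 8 libraries, taken as their median log2 CPM, spanned 0.36 log2 units, from 5.36 in CA_IN library 1 to 5.73 in CA_IP library 3. Among 7175 other tested genes with a mean count of at least 500, the 5 with the most similar pattern were BMP1, HIP1R, CLUH, TMEM132A and FAM3A, with Pearson's r from 0.979 to 0.984 over the 8 libraries. BMP1 also stands on the list of maturation genes. These were the highest of many correlations over the same 8 libraries and are given as a description.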

How the data were processed

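BEAS-2B RNA was measured in 8 libraries, 2 in each of 4 groups. The authors trimmed reads with cutadapt, aligned them with STAR 2.6.0a to GRCh38 and quantified Ensembl transcripts with RSEM 1.2.25, and deposited expected counts and TPM for each isoform, not normalized between libraries. They also deposited DESeq2 tables holding the log2 ratio and its raw and adjusted p for each comparison, which were not used.

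Expected counts were summed by gene and rounded, and named through GENCODE 44 (58207 of 58735 genes matched). Genes with at least 10 counts in at least 2 libraries were tested with edgeR 4.0.16 (limma 3.58.1, R 4.3.3) by TMM and the quasi-likelihood test on 1 mean for each group, with Benjamini-Hochberg adjustment over all 18242 genes, a threshold of 0.05 and a prior count of 0.125. DESeq2 1.42.0 was an alternative. The script was tested on simulated data. Tables and figures were made with Python 3.11.15, pandas 2.3.3 and matplotlib 3.10.9. Base composition came from the MANE Select or canonical transcript. Totals were 26.2 to 45.1 M counts in input and 16.9 to 23.7 M in pull-down, so that a gene held 175 to 5818 counts a library.

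The replicate numbers come from the study's methods and file naming. Input and pull-down of one number share an RNA pool, and deviations of same-numbered libraries from their group means correlated at 0.44 to 0.72 over 12639 genes (0.72 and 0.56 between input and pull-down), so the numbers were taken to pair the libraries. The 10 genes and all lists were chosen with earlier results of these data known. From each list and comparison the text could name at most 4 genes with the largest change among those that passed, or else the 2 most abundant, and for each of the 10 genes the leading isoform and others with at least 20% of its counts. CTAGE5 was matched by its current symbol, MIA2. The alternatives were other scalings, filters and priors, DESeq2, fits on 4 libraries, isoform-level counts, blocks for the replicate number or the RNA pool, and leaving out each library.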

Additional observations from a re-analysis of the deposited data

How the results depend on the processing

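The count of collagen genes called was 0 in every comparison, higher or lower, under edgeR and DESeq2 on 8 or 4 libraries, every scaling, filter and prior, the leading isoforms, the replicate block and each library left out. The exception was the fit with the RNA pool as a block, which pairs input and pull-down: it called 2 higher in clean air and 2 after formaldehyde. Leaving out a library was not combined with that block. Input could not be fitted with it, since no pool holds both treatments. Of 506 single-gene values under the alternatives 38 changed sign, none of them past the threshold, and the causes were not tested.

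The blocks changed the counts over all genes more. Higher and lower calls in clean air were 27 and 322 without a block, 1235 and 706 with the replicate block and 2112 and 1067 with the pool block. After formaldehyde they were 6 and 268, 367 and 586, and 995 and 840. In input they were 0 and 1, and 14 and 244 with the replicate block. DESeq2 on 8 libraries gave 101 and 404 in clean air and 18 and 371 after formaldehyde, and in this order library size gave 821 and 336 and 318 and 243, no filter 147 and 539 and 63 and 515, edgeR on 4 libraries 6 and 263 and 13 and 275, and isoforms 10 and 154 and 5 and 93. In clean air protein-coding genes alone gave 5 and 211, the upper quartile 11 and 298, a mean count of at least 50 gave 10 and 310 and DESeq2 on 4 libraries 15 and 366 (21 and 329 after formaldehyde). Without 1 library calls ran from 2 to 10 higher and 184 to 243 lower in clean air, and from 1 to 3 and 119 to 183 after formaldehyde. With no filter input gave 21 and 79 and the difference between treatments 29 and 23, where the pool block gave 20 and 5.

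Library size in place of TMM moved the median of all genes by 0.16 in clean air and 0.17 after formaldehyde. Under it the collagen median was 0.33 and 0.24, COL4A1 stood at 0.14 and 0.074 and COL12A1 at 0.050 and 0.095, COL4A2 at 0.14 after formaldehyde and COL17A1 at -0.031 in input. Isoforms in place of gene sums put COL17A1 at -0.27 in clean air and -0.064 in input, COL12A1 at 0.074 after formaldehyde and COL6A1 at -0.0040 in input. COL17A1 in input was also -0.0022 with DESeq2 on 4 libraries, -0.0094 with a mean count of at least 50 and -0.012 with no filter.

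The median difference between treatments, -0.088, was -0.079 with DESeq2 on 8 libraries, -0.083 with the pool block, -0.086 with the replicate block, -0.063 with library size, -0.055 with a mean count of at least 50, -0.052 with protein-coding genes alone, -0.067 with no filter and -0.045 with isoforms. Leaving out 1 library at a time gave -0.15 to 0.038, lowest without CA_IP library 1 and highest without FA_IN library 1, and COL18A1 -0.10 to 0.39.

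Without 1 library the clean-air median ran from 0.090 (without CA_IP library 3) to 0.24 (without CA_IP library 1), COL4A1 from -0.11 to 0.10, COL6A1 from 0.19 to 0.44 and COL6A2 from 0.19 to 0.50. After formaldehyde the median ran from 0.031 to 0.10, COL6A1 from 0.11 to 0.37, COL6A2 from 0.21 to 0.42, COL18A1 from 0.064 to 0.55, COL4A1 from -0.24 to 0.064, COL4A2 from -0.20 to 0.17, COL5A1 from -0.015 to 0.11, COL7A1 from -0.061 to 0.13 and COL12A1 from -0.17 to 0.035. In input the median ran from -0.082 (without FA_IN library 1) to 0.15 (without FA_IN library 3), COL4A1 from -0.22 to 0.073, COL4A2 from -0.12 to 0.24, COL6A1 from -0.10 to 0.16, COL6A2 from -0.068 to 0.13, COL16A1 from -0.024 to 0.10, COL17A1 from -0.055 to 0.034 and COL18A1 from -0.21 to 0.27. With 1 library left, that group was assumed to vary like the others.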
